A study of Homo sapiens with 12 samples.

Results

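RKO cells that were made to overexpress PRDM1 were set against RKO cells in which PRDM1 had been targeted for knockout. RKO is an established human colon carcinoma line. The 4 overexpression libraries carried either the alpha form (2 libraries) or the beta form (2 libraries) of PRDM1, and the 4 knockout libraries came from the CRISPR/Cas9 derivatives KO2 (2 libraries) and KO5 (2 libraries). The controls were 2 libraries of RKO cells overexpressing GFP, for the overexpression arm, and 2 of wild-type RKO cells, for the knockout arm, so that 8 of the 12 libraries formed the arms. What drives the transgenes, and whether a derivative is 1 clone, is not given in the sources used here. Members were genes that rose with both forms against GFP and fell in both derivatives against wild type, or the reverse, each in all 4 comparisons at an adjusted p under 0.05. By this rule 429 of 12858 tested genes (3.34%) were opposite in the arms.

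PRDM1, also called BLIMP1, is a zinc finger transcription factor that binds DNA and recruits corepressors. It is best known for closing the B cell programme as plasma cells form, and in the mouse intestine it holds back the adult epithelial programme before weaning. The beta form is a shorter protein that lacks part of the N-terminal PR domain of the alpha form.

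PRDM1 reads set the arms apart, but the knockout arm started from almost none. PRDM1 had 11475 and 9681 counts with alpha, 22395 and 28423 with beta, 0 and 1 in KO2, 1 and 1 in KO5, 2 and 6 with GFP and 4 and 4 in wild type. The overexpression libraries thus stood far above all others, while the knockout and wild-type libraries lay within a few reads of each other. The ratio of overexpression to knockout rested on 3 knockout counts and was 38123 (95% exact binomial interval 13045 to 184867, which covers counting error only). Against wild type the difference in the knockout arm did not pass (-1.82 ± 1.02 on the log2 scale, adjusted p = 0.0735, edgeR's quasi-likelihood F-test), so read counts say nothing of whether the gene was edited.

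Libraries held 19058967 to 55961821 gene counts, and 3 counts, taken as the floor, came to at most 0.157 CPM. CPM is a gene's count as a share of its library's gene counts, scaled to the same total in every library. Levels below are CPM, and differences are fitted log2 fold changes ± standard error with n = 2 libraries a group. Nothing in the labels tells whether a pair of libraries was grown apart, so each p-value reflects the spread within such pairs, which may be technical. The colon epithelial label was borne out in part: KRT8, KRT18 and CDX2 were present in every library, whereas the other epithelial markers EPCAM, CDH1, KRT19 and VIL1 had at most 2 counts in any library. Leukocyte markers summed to 0 to 0.0992 CPM in the overexpression arm and 0 to 0.0350 CPM in the knockout arm, with CD3E, MS4A1 and CSF1R at 0 in all. Fibroblast markers summed to 12.3 to 16.2 CPM in the overexpression arm and 8.37 to 13.1 CPM in the knockout arm, with DCN at 0 in all. COL1A1 stood at 6.70 to 10.0 CPM with overexpression and 5.03 to 6.13 CPM with knockout, without overlap. POSTN stood at 2.40 to 3.31 CPM with overexpression and 0 to 0.455 CPM with knockout, and PDGFRB at 2.25 to 3.02 CPM and 2.98 to 6.51 CPM. The epithelial markers summed to 819 to 930.4 CPM in the overexpression arm and 1006 to 1189 CPM in the knockout arm, without overlap. This gap was that of KRT8, at 493 to 562 CPM with overexpression and 674 to 799 CPM with knockout. KRT18 overlapped, at 311 to 355 CPM and 319 to 376 CPM. CDX2 went the other way, at 14.7 to 17.5 CPM with overexpression and 12.8 to 14 CPM with knockout. Endothelial markers summed to 0.0414 to 0.127 CPM and 0.0281 to 0.0700 CPM, with PECAM1 and CDH5 at 0. The part of these values in the results below was not tested. In such bulk libraries, fewer cells of a kind and less RNA per cell cannot be told apart.

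Compared directly, the overexpression arm differed from the knockout arm in many genes, mostly by little. In all 7557 genes passed edgeR's quasi-likelihood F-test (58.8%), 3989 higher with overexpression (31%) and 3568 lower (27.7%), and of these 325 and 198 differed at least 2-fold (2.53% and 1.54%). Within the knockout arm nearly as large a share differed, with KO5 above KO2 in 3453 genes (26.9%) and below it in 3609 (28.1%). Within the overexpression arm alpha was above beta in 443 genes (3.45%) and below it in 359 (2.79%). When alpha and beta each had to differ from KO2 and from KO5 in 1 direction, 1561 genes were higher (12.1%) and 1201 lower (9.34%). This direct comparison also contains the difference between the controls: GFP against wild type, 2444 genes passed (19%), 1133 higher and 1311 lower, though 18 by at least 2-fold (0.14%). Of the tested genes, 565 (4.39%) passed both in the direct comparison and between the controls, but not in the difference between the arms' changes from their own controls, which 5874 genes passed (45.7%).

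Requiring opposite changes from each arm's own control left 272 genes higher with overexpression and lower with knockout (2.12%), and 157 genes lower with overexpression and higher with knockout (1.22%). By the same rule 91 genes rose in both arms (0.708%) and 59 fell in both (0.459%). The changes were chosen by the rule and are given as a description. Most were small, since the smallest of a member's 4 log2 changes had a median of 0.20 among the 272 genes and 0.13 among the 157. It reached 1.5-fold in 31 and 1 genes, and 2-fold in 8 and 0. Among the 272 genes the larger change was in the overexpression arm for 135 and in the knockout arm for 137, while among the 157 it was in the overexpression arm for 106 and in the knockout arm for 51. The 12 libraries fell into 3 tiers without overlap, overexpression, both controls and knockout, in 133 of the 272 (1.75% of tested genes, 225, had this order) and in 85 of the 157 (1.41%, 181 genes).

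Just inside the threshold, the largest of the 4 adjusted p-values was 0.0496 for DEF8 and 0.0499 for GTPBP2 among genes higher with overexpression, and 0.0492 for PSMB7 and 0.04996 for ZNF138 among those lower. Just outside stood PLXNB2 at 0.0518 and INTS5 at 0.0521, and ADAMTSL1 at 0.0513 and PDGFRL at 0.0519. Across all 12858 genes, which are not independent replicates, the change from GFP and the change from wild type had a Pearson r of -0.118 and a Spearman rho of -0.139. These comparisons share no library. Both changes ran with the GC content of the transcripts, at a Spearman rho of 0.178 and -0.451, and its part in this relation was not tested.

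**Figure D1:**
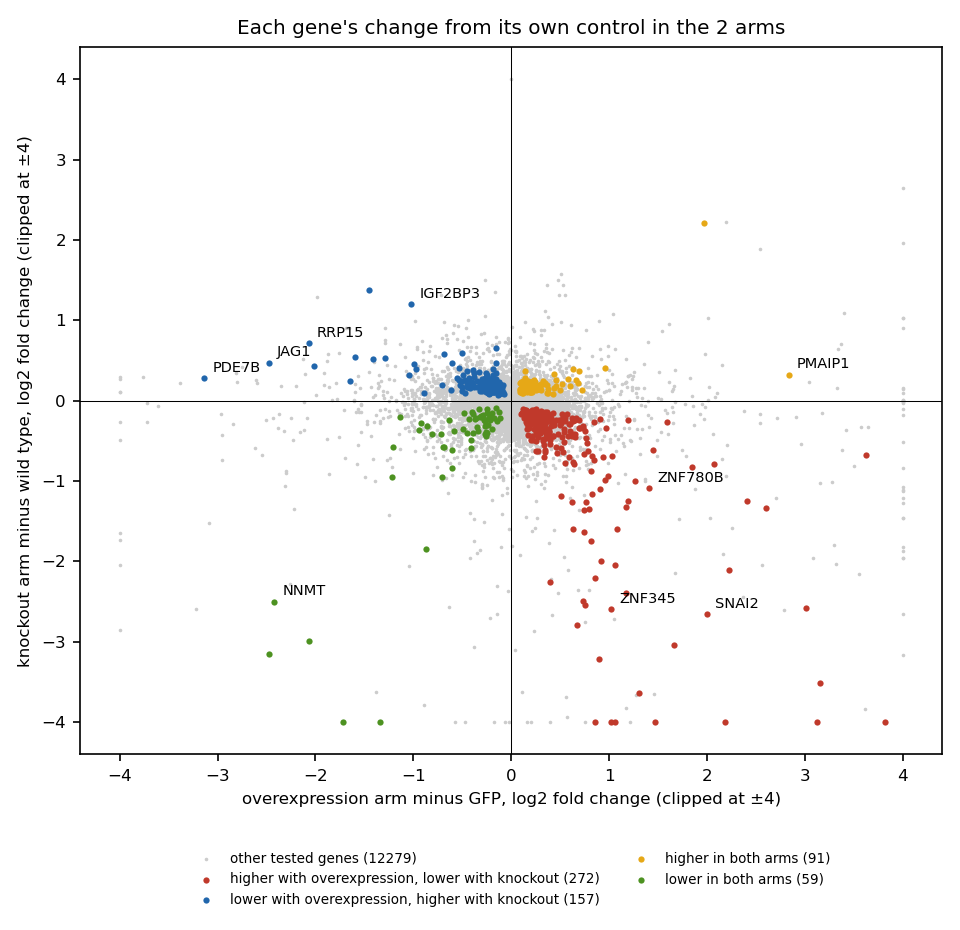
Each point is 1 of 12858 tested genes, with the overexpression arm's log2 change from GFP on the x axis and the knockout arm's log2 change from wild type on the y axis, clipped at 4 in either direction. Red points are the 272 genes higher with overexpression and lower with knockout, blue points the 157 of the reverse kind, and orange and green points the 91 and 59 genes that moved the same way; most members lie close to the centre, and the red points reach much further down than the blue points reach up.

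The controls move with these counts, and so does the base composition of the transcripts. Of the 272 genes 123 were called lower with GFP than in wild type (10.2% of tested genes were) and 17 higher (8.81%), and of the 157 genes 46 were called higher and 1 lower. The median transcript GC content was 60.1% for the 272, 43.7% for the 157 and 50.03% for all tested genes. Across genes, GC content ran with the GFP minus wild type difference at a Spearman rho of -0.659, with the knockout change at -0.451 and with the overexpression change at 0.178. For the derivatives apart, the knockout value was -0.077 in KO2 and -0.515 in KO5. Of the 12 libraries, wild-type replicate 2 had the highest Spearman rho of its level with GC content (0.504) and KO5 replicate 2 the lowest (-0.404). The other library of each group lay on the same side, at 0.327 for wild type and -0.294 for KO5. KO2 had 0.291 and 0.17, and GFP had -0.226 and -0.315. Without wild-type replicate 2 the rule found 252 genes, 156 and 96. With the GC trend taken out of every library it found 289 genes, 167 and 122, of which 132 and 74 were among the 429. Only genes with a known GC content were in that fit, 266 of the 272 and 147 of the 157 members. With GFP as the control of both arms the rule found 240 genes, 160 and 80, and with wild type as the control of both 254 genes, 156 and 98. These swapped controls were chosen after seeing the data, and 93 and 48 genes passed with the own, the GFP and the wild-type controls alike. Of the members named below, ENTPD8, CHRNA5, SEPSECS, JUNB, JUND, AURKA, UTP20, TYMS, CDKN1C, HLA-E, NOTUM, SOX4 and SLC3A2 were not among them. The part of the control difference and of base composition in the members' changes was not tested. Of the 12 leading genes in each direction, which are those with the largest smallest change among members at 5 CPM or more in their highest group and with no noncoding or LOC symbol, 12 higher ones and 11 lower ones still met the rule with the GC trend removed, the exception being SEPSECS.

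Windows of 250 bases before the transcription start are shown for 2 genes of each side, since PRDM1 is known to bind DNA with the core GAAAG and these members move in opposite directions. The sequences are RefSeq's for GRCh38.p14, written along each gene's own strand, and capitals mark GAAAG on either strand (CTTTC on the strand shown). The windows lie at chr7:23470492-23470741 (minus strand), chr20:10674000-10674249 (minus strand), chr19:40056232-40056481 (minus strand) and chr19:36916082-36916331 (plus strand).
IGF2BP3: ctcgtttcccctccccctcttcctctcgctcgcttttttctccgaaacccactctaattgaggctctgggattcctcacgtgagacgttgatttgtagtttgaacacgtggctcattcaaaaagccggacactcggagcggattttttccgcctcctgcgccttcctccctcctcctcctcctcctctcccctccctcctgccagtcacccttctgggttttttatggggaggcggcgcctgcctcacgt
JAG1: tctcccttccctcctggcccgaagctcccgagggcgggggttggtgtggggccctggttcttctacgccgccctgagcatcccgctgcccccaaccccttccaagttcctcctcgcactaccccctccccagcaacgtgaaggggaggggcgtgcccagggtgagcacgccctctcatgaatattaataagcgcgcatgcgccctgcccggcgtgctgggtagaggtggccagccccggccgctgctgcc
ZNF780B: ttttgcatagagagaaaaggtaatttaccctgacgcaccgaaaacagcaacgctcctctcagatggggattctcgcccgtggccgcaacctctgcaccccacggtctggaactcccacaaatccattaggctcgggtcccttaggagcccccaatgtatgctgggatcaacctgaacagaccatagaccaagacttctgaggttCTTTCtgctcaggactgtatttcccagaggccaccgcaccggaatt
ZNF568: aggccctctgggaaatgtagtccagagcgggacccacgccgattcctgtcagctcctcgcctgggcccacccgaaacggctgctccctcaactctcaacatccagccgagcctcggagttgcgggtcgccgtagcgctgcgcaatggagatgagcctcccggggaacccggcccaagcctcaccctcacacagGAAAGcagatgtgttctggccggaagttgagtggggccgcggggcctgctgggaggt

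IGF2BP3 and JAG1 held no match in this window, and ZNF780B and ZNF568 held 1 each. The windows shown were picked from 7 that were drawn out. Of those not shown, ZNF260, higher with overexpression, and RRP15 and PDE7B, lower with overexpression, held no match. The windows shown thus do not stand for the members as a set, whose shares ran the other way. Over members with a window in the table, GAAAG on either strand was present in 75 of 218 genes higher with overexpression (34.4%) and in 68 of 117 genes lower with overexpression (58.1%), against 45.1% of the 10101 tested genes with a window and 49.2% of all 27305 genes in the table. The longer GTGAAAG, which contains that core, was present in 5 of 218 and 6 of 117 windows (2.29% and 5.13%), against 2.51% of tested genes and 3.28% of the table. Some members had passed with the own, the GFP and the wild-type controls alike. Among these, GAAAG was present in 34 of 73 genes higher with overexpression (46.6%) and in 23 of 41 lower (56.1%). The median GC content of the windows was 68.6% and 63.2% over all members with a window, against 65.2% for tested genes. Over the members that passed with all these controls it was 62.8% and 64.0%. The part of GC content in these shares was not tested. These are matches of letters in windows, taken for each gene at the first listed start.

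Zinc finger genes stood out among the members by their number. Many zinc finger genes of chromosome 19 lie side by side and encode KRAB zinc finger proteins, a family known for repressing transposable elements. Of the 272 genes higher with overexpression and lower with knockout, 34 carried a zinc finger symbol (ZNF, ZFP, ZSCAN, ZIK or ZKSCAN; 12.5%, against 482 of all tested genes, 3.75%), and 32 of them lay on chromosome 19. All chromosome 19 genes together made up 74 of the 272 (27.2%, against 945 tested genes, 7.35%). Of the 157 genes of the other direction 1 had a zinc finger symbol and 3 lay on chromosome 19. The zinc finger counts here and below go by symbol alone. They take in the antisense transcript ZNF529-AS1 and leave out HKR1, which has another kind of symbol. The excess of zinc finger and chromosome 19 genes was noticed in these data and was not tested.

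Most zinc finger members met the rule under other controls as well. Of the 34, 33 still passed the rule with the GC trend removed, 32 without wild-type replicate 2, 32 with GFP as the control of both arms and 33 with wild type as that control. Of the other 238 genes, 99, 121, 70 and 114 did so. The difference between these shares was not tested.

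ZNF780B stood at 229 and 213 CPM with alpha, 132 and 131 CPM with beta, 27.9 and 25.5 CPM in KO2, 30.3 and 35.8 CPM in KO5, 68.5 and 60.8 CPM with GFP and 61.9 and 67 CPM in wild type. All 4 overexpression libraries lay above the 4 control libraries, and all 4 knockout libraries below them. The gene changed by 1.79 (alpha) and 1.03 (beta) against GFP, and by -1.24 (KO2) and -0.94 (KO5) against wild type, and the arms differed by 2.50 ± 0.05. ZNF260, which also encodes a zinc finger protein, stood at 350.4 and 349 CPM with alpha, 307 and 302 CPM with beta, 70.9 and 68.8 CPM in KO2, 81 and 86.8 CPM in KO5, 160.3 and 169 CPM with GFP and 150.1 and 151 CPM in wild type. Here too the libraries made 3 separate tiers, with an arms' difference of 2.07 ± 0.03.

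ZNF345 stood at 57.1 and 58 CPM with alpha, 35.8 and 37.6 CPM with beta, 3.23 and 3.57 CPM in KO2, 4.73 and 3.81 CPM in KO5, 22.5 and 23.1 CPM with GFP and 23.8 and 23.3 CPM in wild type. Its knockout change, by -2.76 in KO2 and -2.43 in KO5, was larger than its overexpression change, by 1.34 with alpha and 0.70 with beta. ZNF420 stood at 164 and 166 CPM with alpha, 95.9 and 95.6 CPM with beta, 14.2 and 14.6 CPM in KO2, 21.2 and 20.9 CPM in KO5, 59.2 and 60.6 CPM with GFP and 55 and 52.6 CPM in wild type, with changes by 1.47 (alpha) and 0.68 (beta) against GFP, and by -1.86 (KO2) and -1.32 (KO5) against wild type. ZNF583 had 238 and 228 CPM with alpha, 162 and 159 CPM with beta, 18.3 and 18.8 CPM in KO2, 23.9 and 23.7 CPM in KO5, 90.9 and 95.2 CPM with GFP and 92.5 and 84.8 CPM in wild type, again in 3 tiers. ZNF461 and ZNF568 were of lower level, at 12.8 to 20.0 CPM and 3.39 to 7.09 CPM with overexpression and 2.30 to 4.04 CPM and 0.266 to 0.700 CPM with knockout, and differed between the arms by 2.26 ± 0.09 and 3.46 ± 0.21.

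Many of these genes are neighbours. In the order of RefSeq's GRCh38.p14 gene table, which was used for names and order only, 32 tested genes run from LINC00665 to ZNF573 on chromosome 19. The limits of this run were chosen after the values were seen, so its counts are a description. Of the 32 genes, 28 have a zinc finger symbol and 22 were members higher with overexpression and lower with knockout, 18 of these with a zinc finger symbol. In the direct comparison 31 of the 32 passed as higher with overexpression, and 0 as lower. Among the 22 members the overexpression change ranged over 0.50 to 1.26 with a median of 0.84, and the knockout change over -6.82 to -0.53 with a median of -1.25. The knockout change was the larger in 17 of the 22.

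LINC00665 and ZFP82, singled out after their values were seen, had the largest knockout changes of the run. LINC00665, a long noncoding RNA at the start of the run, stood at 3.95 and 4.17 CPM with alpha, 1.94 and 2.28 CPM with beta, 0.0455 and 0.0281 CPM in KO2, 0 and 0 CPM in KO5, 1.18 and 1.64 CPM with GFP and 1.53 and 1.47 CPM in wild type. The knockout libraries held 3 counts in all, and the ratio of overexpression to knockout was 142 (95% exact binomial interval 48.2 to 695). ZFP82, a few tested genes further on, stood at 10.3 and 10.9 CPM with alpha, 8.34 and 7.57 CPM with beta, 0.114 and 0.112 CPM in KO2, 0.0999 and 0.035 CPM in KO5, 5.12 and 5.05 CPM with GFP and 5.4 and 5.43 CPM in wild type, a knockout arm near the floor of detection. ZNF569, ZNF829, ZNF540 and ZNF570 of the same run were lower in the knockout arm too, at log2 changes from wild type of -4.66, -2.86, -2.67 and -2.65. They were not members, and their overexpression changes averaged -0.03, 0.24, 0.41 and -0.14 over the forms. These averages hide differences between the forms that passed, in ZNF569 (0.57 with alpha and -0.62 with beta) and ZNF540 (0.83 and -0.003). The knockout change of ZNF570 was -4.01 in KO2 and -1.30 in KO5. Reads of zinc finger genes may be split or shared between near-identical copies, and how such reads, and antisense transcripts such as ZNF529-AS1, were counted is not stated.

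**Figure D2:**
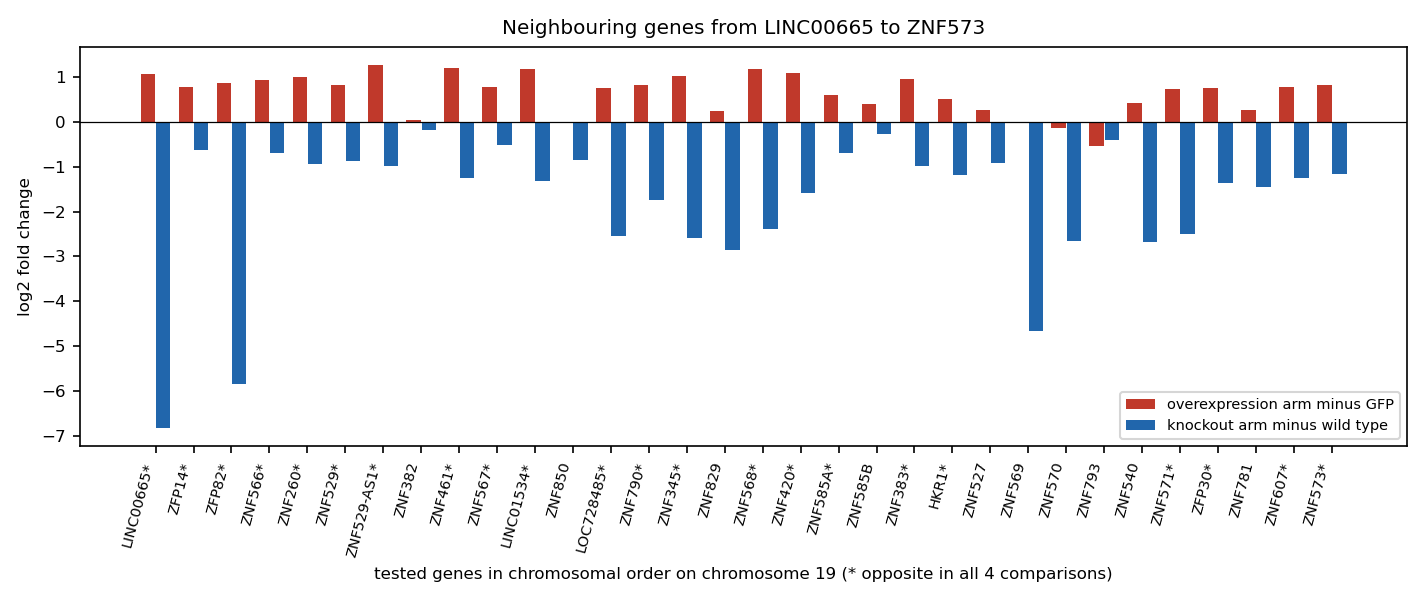
Bars give log2 fold changes of the 32 tested genes from LINC00665 to ZNF573 in chromosomal order, red for the overexpression arm minus GFP and blue for the knockout arm minus wild type, and asterisks mark the 22 members. Red bars reach 1.26 at most, at ZNF529-AS1, while blue bars reach -6.82 at LINC00665 and -5.85 at ZFP82.

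Alpha stood above beta in most zinc finger members. It was called higher than beta in 28 of the 34 and lower in 0, against 3.45% and 2.79% of tested genes, while the alpha libraries held fewer PRDM1 reads than the beta libraries. Of the 22 run members 20 were higher with alpha and 0 lower. Over the other 238 genes of the same direction alpha was higher in 20 and lower in 20. Between the derivatives, KO5 was called above KO2 in 22 of the 34 and below it in 3, against 26.9% and 28.1% of tested genes.

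Outside the zinc finger genes, the leading members higher with overexpression and lower with knockout were of low level in the controls. ARL14EPL, named for its likeness to an effector of ARL14, stood at 7.6 and 8.33 CPM with alpha, 8.76 and 8.36 CPM with beta, 0.0682 and 0.0281 CPM in KO2, 0 and 0.035 CPM in KO5, 0.826 and 1.05 CPM with GFP and 0.767 and 0.965 CPM in wild type. The knockout libraries held 5 counts in all, and the ratio of overexpression to knockout was 228 (95% exact binomial interval 97.1 to 703). SNAI2, a repressor of epithelial genes during epithelial-mesenchymal transition, stood at 5.98 and 4.96 CPM with alpha, 1.42 and 1.99 CPM with beta, 0.091 and 0.169 CPM in KO2, 0.133 and 0.105 CPM in KO5, 0.63 and 0.909 CPM with GFP and 0.877 and 0.768 CPM in wild type. Alpha was the highest group, and the knockout libraries held 17 counts in all.

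SEMA3A, a secreted guidance cue of the semaphorin family, had 40.7 and 40.1 CPM with alpha, 21.6 and 22.6 CPM with beta, 2.05 and 2.44 CPM in KO2, 0.133 and 0.245 CPM in KO5, 4.17 and 3.31 CPM with GFP and 4.22 and 3.82 CPM in wild type. The fall was unequal, by -0.80 in KO2 and by -4.35 in KO5 on the log2 scale. SYTL3, a synaptotagmin-like protein of vesicle traffic, had 16.8 and 16.8 CPM with alpha, 11.7 and 10.3 CPM with beta, 0.387 and 0.59 CPM in KO2, 0.333 and 0.28 CPM in KO5, 6.49 and 6.98 CPM with GFP and 7.56 and 8.08 CPM in wild type, with the larger change in the knockout arm (-4.31, against 1.02 in the overexpression arm). ENTPD8, a nucleotide-hydrolysing membrane enzyme, had 5.77 and 6.94 CPM with alpha, 1.78 and 2.65 CPM with beta, 0.318 and 0.225 CPM in KO2, 0.3 and 0.315 CPM in KO5, 0.512 and 0.727 CPM with GFP and 0.794 and 0.733 CPM in wild type. Its 4 knockout libraries lay below the 4 control libraries, and beta lay between alpha and the controls.

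The genes lower with overexpression and higher with knockout were led by IGF2BP3 and RRP15. IGF2BP3, an oncofetal RNA-binding protein, stood at 82.1 and 83.4 CPM with alpha, 74.9 and 74.7 CPM with beta, 316 and 323 CPM in KO2, 374 and 384 CPM in KO5, 161 and 161 CPM with GFP and 158 and 152 CPM in wild type. The 4 overexpression libraries were lowest, and KO5 was highest. It changed by -0.95 (alpha) and -1.10 (beta) against GFP, and by 1.08 (KO2) and 1.32 (KO5) against wild type, and the arms differed by -2.17 ± 0.03. It was the 1 gene of this direction in which the smallest of the 4 changes exceeded 1.5-fold, and its promoter window, shown above, held no GAAAG.

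RRP15, a factor in the making of the large ribosomal subunit, had 53.2 and 52.8 CPM with alpha, 39.2 and 38.1 CPM with beta, 272 and 286 CPM in KO2, 339 and 339 CPM in KO5, 191 and 191 CPM with GFP and 192 and 190.1 CPM in wild type. The libraries made 3 tiers, and the overexpression change was the larger one, at -2.07 against 0.72 in the knockout arm. JAG1, a ligand of the Notch receptors, had 117 and 117 CPM with alpha, 30.6 and 29 CPM with beta, 552 and 544 CPM in KO2, 419 and 414 CPM in KO5, 323 and 337 CPM with GFP and 351 and 352 CPM in wild type. Beta was far lower than alpha, KO2 was above KO5, and both control groups lay between the arms. PDE7B, a phosphodiesterase that breaks down cyclic AMP, had 24.4 and 23.7 CPM with alpha, 7.66 and 7.53 CPM with beta, 139.9 and 135 CPM in KO2, 146 and 151 CPM in KO5, 118 and 121 CPM with GFP and 124 and 117 CPM in wild type, so that the knockout change was only 0.23 in KO2 and 0.33 in KO5.

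CALD1 and TPM1 encode the actin-binding proteins caldesmon and tropomyosin. CALD1 had 5.52 and 4.66 CPM with alpha, 5.46 and 4.3 CPM with beta, 18.5 and 20.1 CPM in KO2, 23.5 and 23.5 CPM in KO5, 14.4 and 15.7 CPM with GFP and 15.2 and 14.6 CPM in wild type, and TPM1 had 81.1 and 84.8 CPM with alpha, 82.4 and 79.3 CPM with beta, 170.0 and 172 CPM in KO2, 141 and 139 CPM in KO5, 117 and 121 CPM with GFP and 118 and 119 CPM in wild type. MET, the receptor of hepatocyte growth factor, had 60.5 and 51.9 CPM with alpha, 45.9 and 49.6 CPM with beta, 108 and 109 CPM in KO2, 133 and 137 CPM in KO5, 104 and 101 CPM with GFP and 94.8 and 94.6 CPM in wild type. For all 3 genes every overexpression library was below and every knockout library above both controls.

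NAV3, a microtubule-associated protein, had 21.5 and 21.1 CPM with alpha, 5.04 and 5.83 CPM with beta, 45.3 and 46 CPM in KO2, 79 and 83 CPM in KO5, 31.5 and 28.2 CPM with GFP and 23.4 and 24.4 CPM in wild type; alpha lay only a little under the GFP libraries. CA12, a carbonic anhydrase of the cell surface, differed between the arms by -1.11 ± 0.05. CHRNA5, a subunit of nicotinic acetylcholine receptors, and SEPSECS, an enzyme of selenocysteine synthesis, differed by only -0.39 ± 0.05 and -0.53 ± 0.08.

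**Figure D3:**
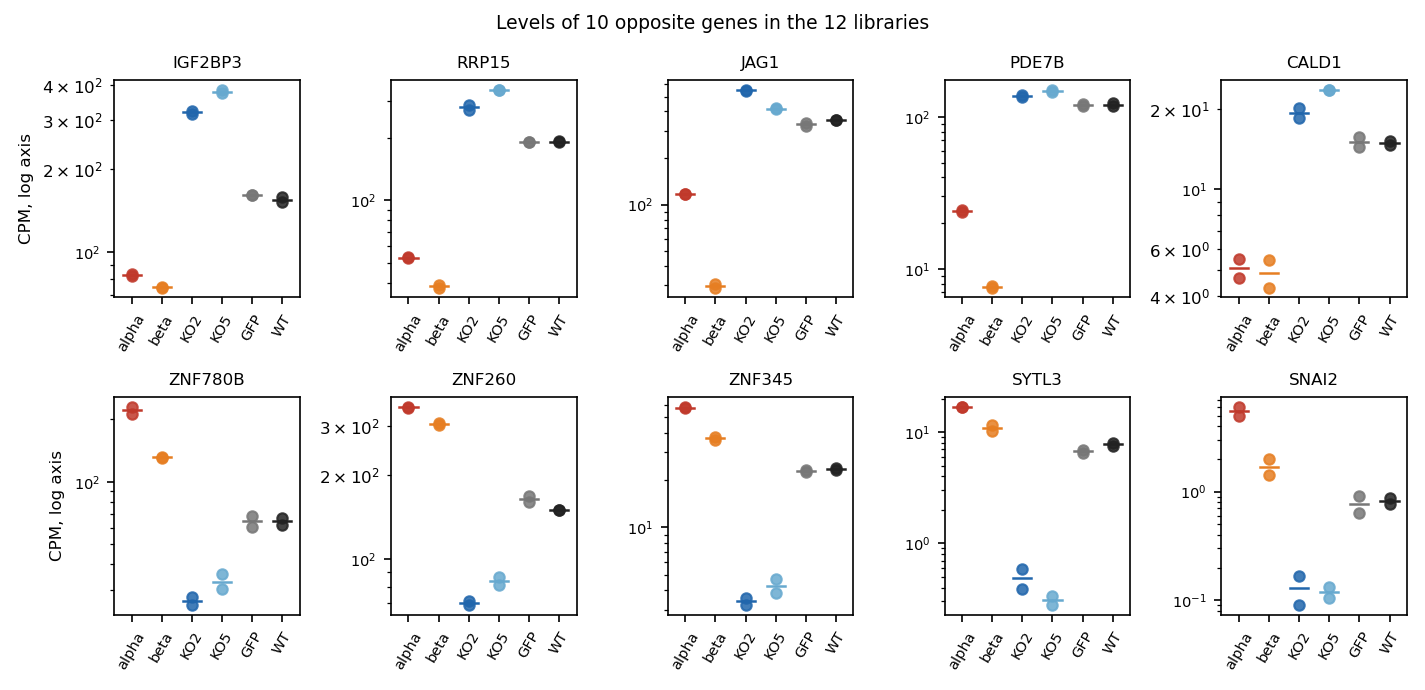
Points are single libraries and short lines group means of 10 members, in CPM on a log axis, with the alpha, beta, KO2, KO5, GFP and wild-type groups from left to right. The top row holds genes lowest with alpha and beta and highest in KO2 and KO5, and the bottom row the reverse, with GFP and wild type between the arms in each.

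Of the gene lists, the cholesterol synthesis, unfolded protein response and immediate early lists lay on the higher side in the direct comparison, and the mitosis and ribosome biogenesis lists on the lower side. They are described by counts beside the 31% and 27.7% of all genes called higher and lower, with a median of 0.01 over all tested genes. Against the own controls, 24.7% of all genes were called higher and 19.8% lower with overexpression, and 17.3% higher and 19% lower with knockout. Of 24 cholesterol synthesis genes 20 were higher with overexpression, 3 lower and 1 did not pass (median 0.22). These genes' own-control counts ran opposite in the arms, with 12 higher and 2 lower against GFP, and 0 higher and 15 lower against wild type. The members INSIG1, which holds back SREBP, the activator of cholesterol synthesis genes, and HMGCS1 and IDI1, enzymes of the mevalonate pathway, met the opposite rule.

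HMGCS1 stood at 210.1 and 229 CPM with alpha, 177 and 186 CPM with beta, 104 and 105 CPM in KO2, 101 and 103 CPM in KO5, 125 and 134 CPM with GFP and 125 and 121 CPM in wild type, and INSIG1 at 139.7 and 147 CPM with alpha, 134 and 143 CPM with beta, 92.8 and 99.5 CPM in KO2, 53.6 and 49.3 CPM in KO5, 107 and 116 CPM with GFP and 112 and 108 CPM in wild type. In both genes the 4 overexpression libraries lay highest and the 4 knockout libraries lowest. For INSIG1 the fall was mainly in KO5, whereas HMGCS1 was alike in KO2 and KO5.

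Of 20 unfolded protein response genes 16 were higher, 0 lower and 4 did not pass (median 0.22), and against the own controls 14 were higher and 1 lower with overexpression, while 3 were higher and 6 lower with knockout. HERPUD1, an endoplasmic reticulum protein induced by misfolded proteins, was the 1 member opposite in the arms, at 68.7 and 69.7 CPM with alpha, 60.2 and 63 CPM with beta, 44.2 and 44.2 CPM in KO2, 36.6 and 39.5 CPM in KO5, 53.3 and 53.8 CPM with GFP and 51.9 and 51.1 CPM in wild type. Of 23 immediate early and AP-1 genes 14 were higher, 5 lower and 4 did not pass (median 0.41). Against the own controls 17 were higher and 4 lower with overexpression, while 6 were higher and 6 lower with knockout. JUNB and JUND, subunits of AP-1, met the opposite rule with overexpression changes of 0.74 and 0.69 and knockout changes of -0.32 and -0.34. JUNB no longer met it with the GC trend removed. The outcome with that trend removed was looked up only for genes picked by the naming rules. JUND, AURKA, UTP20, CDK6, TNFRSF10B, HLA-E, SOX4, SLC3A2, HK2 and ENO1 were not among these.

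The mitosis list held mostly lower genes, by little. Of 52 G2/M and mitosis genes 6 were higher, 34 lower and 12 did not pass (median -0.12); the own-control counts were 5 higher and 30 lower with overexpression and 19 higher and 5 lower with knockout. Its opposite members were AURKA, a mitotic kinase, and PTTG1, securin. PTTG1 changed by -0.22 with overexpression and by 0.15 with knockout, and it no longer met the rule with the GC trend removed. Of 40 G1/S genes 11 were higher and 14 lower (median -0.03), with TYMS, thymidylate synthase, opposite and lower with overexpression.

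Of 15 D cyclin, CDK4/6 and CDK inhibitor genes 10 were higher and 2 lower, and the 2 lower genes were opposite in the arms. CCND1, cyclin D1, stood at 351 and 361 CPM with alpha, 365 and 363 CPM with beta, 737 and 708 CPM in KO2, 504 and 494 CPM in KO5, 414 and 395 CPM with GFP and 388 and 394 CPM in wild type. The knockout rise was the larger, and larger in KO2 than in KO5. CDK6, the kinase that cyclin D1 activates, had 202 and 190.5 CPM with alpha, 175 and 181 CPM with beta, 272 and 268 CPM in KO2, 269 and 279 CPM in KO5, 266 and 249 CPM with GFP and 242 and 250.3 CPM in wild type, with every overexpression library below and every knockout library above both controls. CDKN1C, a CDK inhibitor, was opposite the other way, by 0.65 with overexpression and by -0.46 with knockout, but no longer met the rule with the GC trend removed.

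Of 30 MYC and ribosome biogenesis genes 3 were higher, 21 lower and 6 did not pass (median -0.14). Against the own controls, 9 were higher and 9 lower with overexpression, and 22 higher and 2 lower with knockout. RRP15, above, and UTP20 of the small subunit processome were the 2 opposite members.

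Of 24 p53 targets 7 were higher and 14 lower (median -0.21). Here the own-control counts were 9 higher and 7 lower with overexpression and 17 higher and 2 lower with knockout. PLK2, a polo-like kinase, was opposite, at 16.6 and 17.4 CPM with alpha, 10.6 and 12.2 CPM with beta, 6.85 and 6.4 CPM in KO2, 1.4 and 1.22 CPM in KO5, 8.85 and 9.27 CPM with GFP and 8.93 and 9.26 CPM in wild type, with the fall mainly in KO5. TNFRSF10B, a death receptor of the ligand TRAIL, was opposite the other way, by -0.45 and by 0.21.

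The interferon and antigen presentation lists held more lower than higher genes in either arm. Of 29 interferon-stimulated genes 8 were higher, 17 lower and 4 did not pass (median -0.19), and of 20 MHC class I antigen presentation genes 7 were higher, 12 lower and 1 did not pass (median -0.21). Against the own controls 1 and 5 of these genes were higher and 15 and 12 lower with overexpression, and 5 and 2 were higher and 10 and 7 lower with knockout. None of the 29 listed interferon-stimulated genes was opposite, and of the 20 listed antigen presentation genes HLA-E was, by 0.35 and -0.15.

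Of 27 Notch pathway genes 15 were higher and 5 lower (median 0.11), and its opposite members were JAG1 and HES4, a Notch-responsive repressor, which was higher with overexpression and no longer met the rule with the GC trend removed. Of 10 intestinal stem cell genes 2 were higher and 6 lower, and CDK6, above, was the opposite one. Of 13 Wnt targets and feedback genes 4 were higher and 6 lower; NOTUM, a secreted Wnt inhibitor, was opposite and higher with overexpression, and CCND1 and the transcription factor SOX4 were opposite and lower. NOTUM no longer met the rule with the GC trend removed. Of 18 TGF-beta and BMP feedback genes 11 were higher and 6 lower, with ID2 opposite. ID2, an inhibitor of helix-loop-helix factors, stood at 11.6 and 12 CPM with alpha, 22.8 and 22.5 CPM with beta, 3.84 and 2.84 CPM in KO2, 5.99 and 5.11 CPM in KO5, 8.97 and 9.34 CPM with GFP and 6.82 and 7.79 CPM in wild type.

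Across the further lists the direct counts of higher and lower genes were 8 and 7 of 18 ERK feedback genes, and 7 and 4 of 18 NF-kB targets. They were 6 and 5 of 16 ATF4 amino acid stress genes, of which 9 were lower with overexpression and 11 lower with knockout against the own controls, and of which SLC3A2, an amino acid transporter subunit, was opposite and higher with overexpression. They were 7 and 14 of 23 glycolysis and hypoxia genes, with HK2 and ENO1, enzymes of glycolysis, opposite by -0.19 and 0.21 and by -0.23 and 0.09. Of 7 tested matrix metalloproteinase and inhibitor genes 4 were higher and 0 lower, of 6 mesenchymal genes 3 and 0, of 9 epithelial genes 3 and 5, of 11 integrin subunits 7 and 1, and of 8 genes that PRDM1 represses in lymphocytes 4 and 2. MMP3, stromelysin-1, was higher with overexpression by 7.53 and in the knockout arm by 1.96, each from its own control. The knockout rise passed in KO5 (3.06) and not in KO2 (0.87). It rested on few counts, 6 and 5 in KO2, 20 and 18 in KO5 and 7 and 0 in wild type. MMP1, an interstitial collagenase, was higher with overexpression by 5.73, while its knockout change of 0.90 did not pass (adjusted p = 0.228, edgeR's quasi-likelihood F-test).

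**Figure D4:**
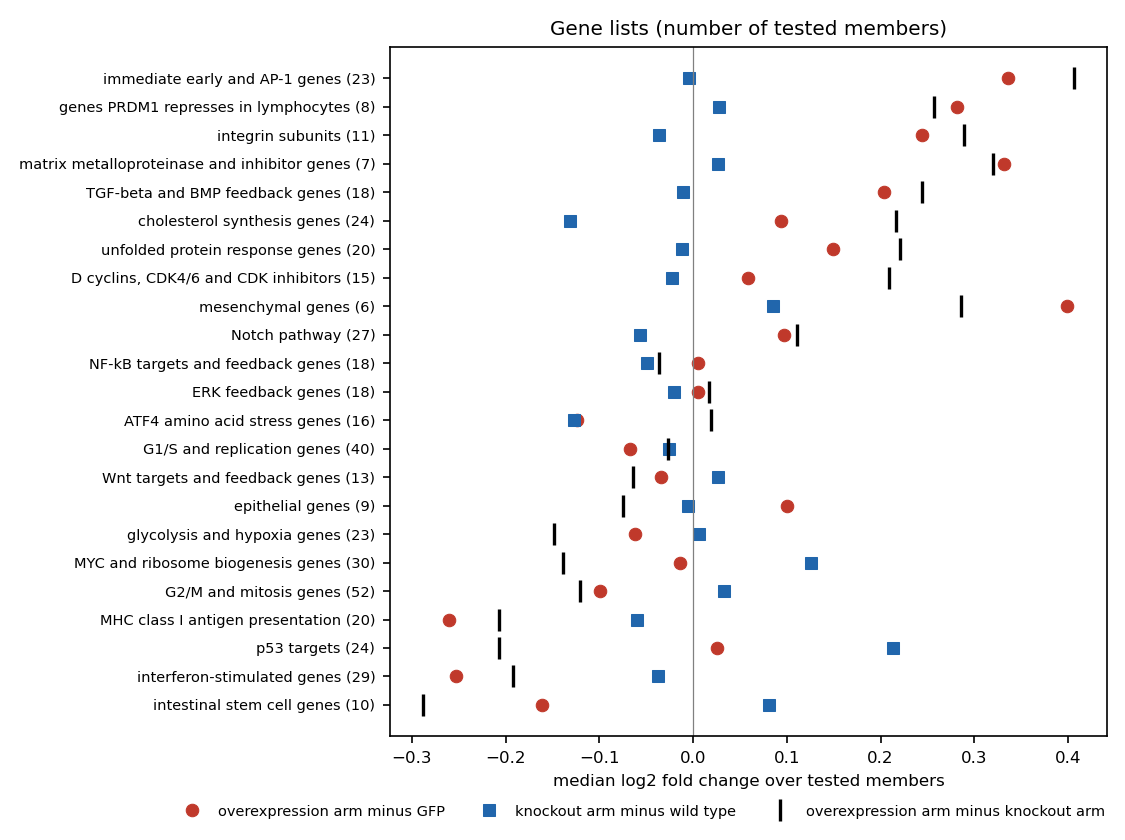
For each gene list, circles give the median log2 change of the overexpression arm from GFP, squares that of the knockout arm from wild type and bars that of the overexpression arm minus the knockout arm, over the tested members numbered beside each name. Lists are ordered by the median difference between the arms' changes, from immediate early genes at the top to intestinal stem cell genes at the bottom, and no median exceeds 0.41 in size.

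In most genes with the largest direct differences, taken at 5 CPM or more and without noncoding or LOC symbols, the overexpression arm moved further from its control than the knockout arm. Among genes that differed from both derivatives with both forms, SERPINB7, a serine protease inhibitor, was higher by 7.74 ± 0.58 (adjusted p = 5.92e-36, edgeR's quasi-likelihood F-test), at 19.6 and 20.5 CPM with alpha, 10.9 and 10.8 CPM with beta, 0.0227 and 0.0281 CPM in KO2, 0.0333 and 0.28 CPM in KO5, 0.0787 and 0.109 CPM with GFP and 0.0822 and 0.0536 CPM in wild type. CPA4, a carboxypeptidase, was higher by 6.99 ± 0.13 (adjusted p = 4.10e-53, same test), at 188 and 182 CPM with alpha, 86.2 and 81.8 CPM with beta, 0.796 and 0.477 CPM in KO2, 1.56 and 1.26 CPM in KO5, 1.5 and 1.05 CPM with GFP and 0.767 and 0.965 CPM in wild type. In both genes the knockout libraries were near the controls.

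On the lower side TLR3, a receptor for viral RNA, differed by -4.74 ± 0.37 (adjusted p = 2.46e-27, same test), at 1.32 and 0.694 CPM with alpha, 0 and 0.207 CPM with beta, 7.64 and 7.02 CPM in KO2, 12.2 and 11.1 CPM in KO5, 7.59 and 8.36 CPM with GFP and 7.64 and 7.77 CPM in wild type. ADAMTSL1, an extracellular matrix protein, differed by -4.08 ± 0.10, and it missed the opposite rule only in KO5. GBP3, an interferon-induced GTPase, differed by -3.51 ± 0.24 with knockout changes of -0.37 in KO2 and 0.31 in KO5. Of the 12 such genes, 6 in each direction, ARL14EPL, PDE7B and JAG1 were opposite as named above and so was ZFP82.

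**Figure D5:**
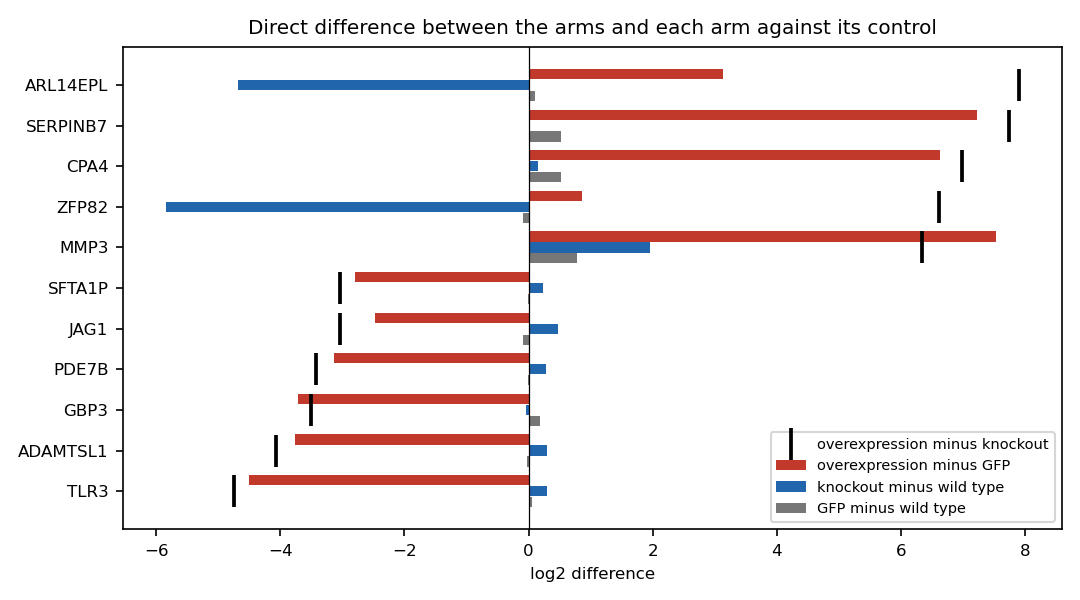
For the genes with the largest direct differences among those at 5 CPM or more in the highest group that passed all 4 form by derivative comparisons, 6 in each direction but for PRDM1, black ticks mark overexpression minus knockout, and bars give overexpression minus GFP (red), knockout minus wild type (blue) and GFP minus wild type (grey) in log2 units. The red bar carries most of the difference in SERPINB7, CPA4, MMP3 and the genes on the lower side, and the blue bar is the longer in ARL14EPL and ZFP82.

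Genes that moved the same way in both arms formed the counterpart. PMAIP1, the BH3-only protein NOXA, stood at 200.2 and 212 CPM with alpha, 143 and 137 CPM with beta, 25 and 26 CPM in KO2, 27.4 and 28.4 CPM in KO5, 25.4 and 22.6 CPM with GFP and 21.6 and 21.9 CPM in wild type, so that the overexpression change (2.83) far exceeded the knockout change (0.33). IGF2BP2, a relative of IGF2BP3, was higher in both arms, by 0.43 and by 0.33, whereas IGF2BP3 was opposite. NNMT, nicotinamide N-methyltransferase, stood at 9.8 and 10.2 CPM with alpha, 4.72 and 6 CPM with beta, 7.14 and 6.83 CPM in KO2, 6.46 and 6.05 CPM in KO5, 40.02 and 39.5 CPM with GFP and 38.5 and 38.1 CPM in wild type. All 8 libraries of the arms lay far below all 4 controls, and the arms did not differ beyond the test's threshold (0.13 ± 0.08, adjusted p = 0.142, edgeR's quasi-likelihood F-test), a call that changed without beta replicate 1 (0.20). PCLO, a presynaptic scaffold protein, was lower by 2.07 and by 2.99, and HEY1, a Notch target, was lower by 0.69 and by 0.57 on the log2 scale.

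In some genes the direct difference was matched, on average over the derivatives, by one between the controls. BCL2, the apoptosis inhibitor, was higher in the direct comparison by 0.30 ± 0.08 and with GFP than in wild type by 0.29, while the arms' own changes averaged 0.06 and 0.05. The knockout average covered -0.16 in KO2 and 0.27 in KO5, and KO5 passed the test while KO2 did not. ZMAT5, a zinc finger protein, was lower by -0.36 directly and by -0.32 between GFP and wild type, with own changes of -0.08 and -0.04 on average. Here both derivatives passed, by 0.18 in KO2 and by -0.26 in KO5, so that the average hides opposite changes.

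The authors' deposited tables of each form against knockout gave a smaller direct set. In the authors' deposited tables, 925 genes were higher and 727 lower with both forms at an adjusted p under 0.05. All 12858 tested genes had a value for both forms there. Of the 272 genes higher with overexpression, 206 were higher in both of the authors' deposited tables, and of the 157 lower ones 134 were lower in both. These comparisons use the same series and set each form against knockout, without own controls. The overlap is therefore no separate evidence for the opposite rule.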

How the data were processed

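RNA-seq libraries of 12 RKO samples were deposited as gene counts, and the authors' raw counts were used as they stand; the 2 rows that name no gene were dropped. The submitters' processing notes name TopHat, Bowtie2, Cufflinks and hg19, without versions or roles; the read counter and its use of strand are not given in the sources used here. The authors also deposited comparison tables with log2 fold change, Wald score and p-value, which serve as an alternative; 1 table with the same values as the beta table was left out.

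Counts were scaled by TMM, 12858 of 26364 genes passed filterByExpr, and edgeR 4.0.16 (R 4.3.3, limma 3.58.1) fitted robust quasi-likelihood F-tests over all 12 libraries in 15 contrasts, with Benjamini-Hochberg adjustment over all tested genes and a threshold of 0.05. The common coefficient of variation was 2.18%, and the fit was tested on simulated data. CPM are a library's counts divided by its gene counts, without TMM scaling. Transcript GC content came from GENCODE, and chromosome, order and promoters from RefSeq, both on GRCh38; no coordinates were converted.

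Named genes were the 12 opposite genes per direction whose smallest change was largest, the 6 per direction with the largest direct difference, 4 per direction that moved the same way, 4 per direction that passed directly and between the controls but not in the difference of changes and 3 per gene list, each at 5 CPM or more in the highest group and without LOC, LINC, microRNA, small nucleolar or antisense symbols, except list members and PRDM1. Other genes were named after their values were seen. The members, lists and rules were chosen with earlier results of these data known. Alternatives were other scalings, filters, tests, thresholds and controls, and leaving out each library; DESeq2 1.42.0 was one of them.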

Additional observations from a re-analysis of the deposited data

Results flagged for a closer look

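Differences within an arm of at least 2-fold that passed the test were found in 6 of the leading opposite genes; smaller ones that passed are not listed. Each was tested by edgeR's quasi-likelihood F-test of the difference itself. In the overexpression arm, alpha stood above beta by 1.97 ± 0.0543 (log2 ± SE, adjusted p = 3.83e-35) for JAG1 and by 1.96 ± 0.110 (adjusted p = 4.11e-21) for NAV3, so that both genes fell further with beta. PDE7B differed in the same way by 1.66 ± 0.0961 (adjusted p = 6.06e-21). Among genes higher with overexpression, alpha stood above beta by 1.66 ± 0.213 for SNAI2 (adjusted p = 1.47e-08) and by 1.48 ± 0.191 for ENTPD8 (adjusted p = 2.65e-08). In the knockout arm, SEMA3A was lower in KO5 than in KO2, with a difference of -3.55 ± 0.450 (adjusted p = 2.22e-13).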

How the results depend on the processing

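For the direct difference between the arms, no called value of a named gene changed sign under the alternatives run; of 2265 such values of 108 genes, 2205 kept their side of the threshold, 59 no longer passed and 1, NNMT, newly passed. The members' own-control changes kept all 4 signs in the other refits, but with the GC trend removed only in 215 of 266 higher and 132 of 147 lower genes; HES4 with beta, for one, came to -0.024. Requiring a change beyond 1.5-fold (glmTreat) left 639 genes between the arms, 275 agreeing in all 4 comparisons, 9 opposite, 5 moving the same way, 505 in the difference of the arms' changes and 0 between GFP and wild type, where 33 genes had an unadjusted p under 0.05 and DESeq2 called 1501. With the GC trend removed, 118 genes differed between GFP and wild type. The DESeq2 Wald test gave 254 opposite and 74 same-way genes, and its GFP against wild type calls were 58.4% higher, against 46.4%. Treating each arm as 1 group of 4 libraries gave 4645 genes between the arms, and 1652 genes passed in the authors' deposited tables. An adjusted p of 0.01 gave 230 opposite and 67 same-way genes, and libraries without overlap gave 4364 agreeing, 1221 opposite and 687 same-way genes. Swapped controls, added after seeing the data, gave 240 opposite genes with GFP and 254 with wild type. Leaving out 1 library gave 6886 to 7698 genes between the arms, 2282 to 2844 agreeing, 252 to 405 opposite, 78 to 131 same-way, 4944 to 5756 in the difference of changes and 645 to 2443 between GFP and wild type. Without wild-type replicate 2 these were 252 opposite, 78 same-way and 645 between the controls; same-way genes were 97 without KO2 replicate 2, and control genes 1079 without GFP replicate 2. With 1 library left in a group, it is assumed to vary like the others. Replicate numbers did not pair the samples (correlations of -0.0655 to 0.0564), and with the replicate block the counts were 7534, 2736, 418, 140, 5810 and 2372. Except for the thresholds themselves, the cause of these moves was not tested. Genes near the floor of 3 counts, such as LINC00665 in the knockout arm, are limited by depth.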
